A study of Oryctolagus cuniculus with 27 samples.

Results

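The subunits of the 5 complexes of oxidative phosphorylation were followed in rabbit tissue from the aortic valve, the ascending aorta and the left ventricular wall of the heart (myocardium). Members were the genes whose name in the full count tables begins with NDUFA, NDUFB, NDUFC, NDUFS or NDUFV and a digit, with UQCR, with COX4 to COX8 or with ATP5, together with SDHA, SDHB, SDHC and SDHD. The genes listed under the mitochondrial genome prefix KEF51_p completed the set. The rule took 74 of 31346 genes, of which 61 are encoded in the nucleus and 13 in the mitochondrial genome. The nuclear members were 36 genes of complex I, 4 of complex II, 1 of complex III, 2 of complex IV and 18 of complex V. A further 21 genes of the same complexes are listed under LOC numbers and escape the name rule. RefSeq pairs them by gene ID with 1 gene of complex I, 7 of complex III and 13 of complex IV, and they are described apart.

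All animals were wild-type male New Zealand rabbits. The diet groups received 1% cholesterol and 3500 IU of ergocalciferol (vitamin D2) per kg per day, and the controls ate normal chow. Diet valves were taken after 2, 4 and 7 weeks (n = 4 each) and set against 4 control valves, with 1 cusp per animal. Diet and control aorta had 2 and 3 libraries, and diet and control myocardium had 3 each. The durations behind the aorta and myocardium libraries are not given in the labels. The age of the control valves is uncertain, because the design text names a pool of 2 and 4 weeks and the titles name 7 weeks for 3 libraries and 2 weeks for 1. Going by the numbers of the animals, 6 of 21 gave a library of 2 tissues, among them all 3 diet myocardium animals, which also gave 7-week valves. The library numbers of the 7-week valves lie apart from those of the other valves, and if they mark a sequencing run, run and group cannot be told apart.

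Oxidative phosphorylation passes electrons from NADH (complex I) and succinate (complex II) through complexes III and IV to oxygen, and complex V, the ATP synthase, uses the proton gradient so formed. Most subunits are made from nuclear genes, while a few core subunits come from the mitochondrial genome, so each complex except complex II needs transcripts of both genomes. Heart muscle is rich in mitochondria, and its cells use muscle isoforms of several complex IV subunits. A valve cusp holds interstitial and endothelial cells, and dissection can leave heart muscle attached at its base. Gene roles given here are those known from human and mouse. In bulk tissue, fewer cells of a type and less RNA per cell cannot be told apart.

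Libraries held 8458453 to 19998954 counts in valve, 11509616 to 16107428 in aorta and 13954438 to 17322373 in myocardium. All 74 members were tested in each of the 11 comparisons, and all 74 are kept in the valve table from which the authors took out myocardial genes. The levels of members are given as CPM, which are counts scaled to the library total, and only the same gene is compared between libraries, since CPM are not corrected for gene length. ATP5F1B and NDUFB9 share reads with a near-identical LOC row, which held 1.74% to 82.1% of the joint reads of ATP5F1B and 0.142% to 93.9% of those of NDUFB9, so their values are uncertain. Counts that are not whole mark reads shared between genes. They occurred in every library for 8 nuclear members, ATP5F1A and ATP5MF among them, and in some libraries for 7. Of 27 libraries, NDUFA4 had them in 26, ATP5ME in 23 and ATP5MC1 in 16. For these genes the part of shared reads was not measured. The genes of the mitochondrial genome are named by their locus IDs, which the files do not pair with gene symbols.

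The nuclear members together took a smaller share of the counts in the 2-week valves than in any other valve group. They made up 0.471%, 0.580%, 0.434% and 0.528% of all counts in the 2-week valves. At 4 weeks they made up 1.23%, 0.780%, 0.569% and 0.856%, and at 7 weeks 0.665%, 1.82%, 1.07% and 1.37%. In the control valves the shares were 0.997%, 0.764%, 1.43% and 1.18%. All 4 libraries at 2 weeks lay below all 4 controls and below all 4 libraries at 7 weeks, while the 4-week and 7-week valves overlapped the controls. The group means were 0.504% ± 0.064 at 2 weeks, 0.859% ± 0.277 at 4 weeks, 1.23% ± 0.489 at 7 weeks and 1.09% ± 0.282 in controls (SD, n = 4 each).

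The 13 mitochondrially encoded members varied more within groups, and no valve group stood apart. Their shares were 9.63%, 7.51%, 11.3% and 8.502% in the 2-week valves. The shares at 4 weeks were 13.6%, 7.07%, 5.95% and 13.02%, and those at 7 weeks were 9.47%, 19.0%, 11.3% and 14.1%. The control valves had 14.8%, 6.83%, 17.4% and 21.0%. Control replicate 2 lay low among the diet valves, so that the 2-week valves and the controls overlapped. The means were 9.24% ± 1.64, 9.91% ± 3.96 and 13.5% ± 4.17 at 2, 4 and 7 weeks, against 15.004% ± 6.01 in controls (SD, n = 4 each).

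The log2 ratio of nuclear over mitochondrial counts averaged -4.19 ± 0.44 in the 2-week valves, -3.49 ± 0.32 at 4 weeks, -3.50 ± 0.23 at 7 weeks and -3.70 ± 0.43 in controls (SD, n = 4 each). The single 2-week libraries stood at -4.35, -3.69, -4.71 and -4.01. They overlapped the controls, which ran from -4.15 to -3.16. The 2-week mean was the lowest of the 8 groups, and the other groups ran from -3.84 in diet aorta (n = 2) to -3.15 in control myocardium (n = 3).

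**Figure D1:**
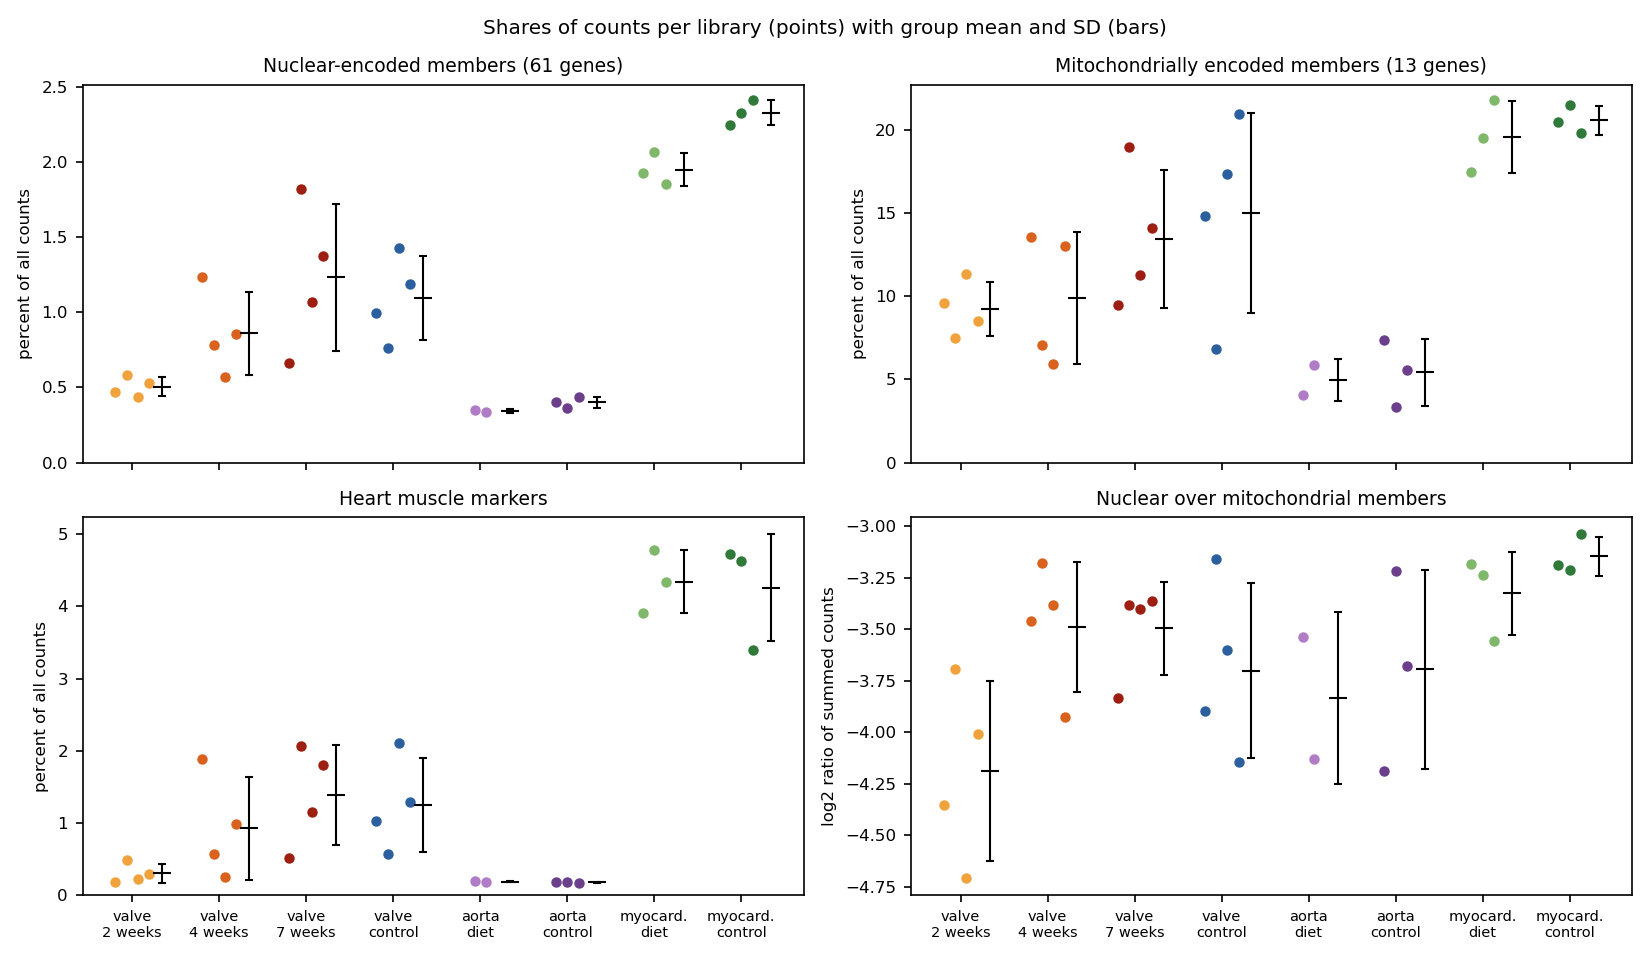
Shares of all counts (percent) taken by nuclear members, mitochondrial members and heart muscle markers, and the log2 ratio of nuclear over mitochondrial counts; each point is a library, and bars give the group mean and SD. The 2-week valves lie at 0.434% to 0.580% for nuclear members, below every control valve, while their mitochondrial shares of 7.51% to 11.3% overlap the controls.

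Heart muscle transcripts were measured with 20 shared cardiomyocyte markers, such as titin, troponins and myosin-binding protein C, and none of the 20 was at 0 in any library. Their summed share ran from 0.185% to 0.490% in the 2-week valves, from 0.250% to 1.88% at 4 weeks, from 0.517% to 2.07% at 7 weeks and from 0.568% to 2.11% in controls. In aorta it ran from 0.163% to 0.189% and in myocardium from 3.40% to 4.78%. The 2-week valves thus lay below all controls for heart muscle as well as for nuclear members.

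Across the 16 valve libraries the nuclear share followed the heart muscle share closely. It differed by 0.562 ± 0.0425 percentage points (slope ± SE) for each percentage point of muscle markers. Pearson's r was 0.962 and Spearman's rho 0.988, and without the 2 libraries farthest from the median muscle share r was 0.969. With each group's mean taken away, the slope was 0.501 ± 0.0520 and r was 0.946, so the relation was also present inside the groups. The mitochondrial share followed muscle less closely, with a slope of 5.14 ± 1.11, r = 0.779, rho = 0.721 and r = 0.672 without the 2 farthest libraries. Inside the groups its slope was 5.34 ± 1.41 and r was 0.751. These correlations describe 16 libraries whose numerator and denominator come from the same counts, and no p is given.

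Other marker lists moved differently with the nuclear share. The ventricular muscle list had r = 0.847 and the atrial muscle list r = 0.349. Without the 2 libraries farthest from the median share of each list, these were 0.681 and 0.482. The smooth muscle list had r = -0.754 and the list of fibroblast and valve interstitial genes r = -0.669, while the macrophage list had r = 0.143 (n = 16 valve libraries each). Without the 2 libraries farthest from the median share of the list in question, these were -0.683, -0.605 and 0.472. The 15 citric acid cycle genes, the mitochondrial pathway upstream of the respiratory chain, had r = 0.937. The mitochondrial share had its highest r, 0.905, with the ribosomal RNA of the mitochondrial genome. The ratio of nuclear over mitochondrial counts had r = 0.384 with heart muscle, r = 0.616 with macrophage markers and r = -0.619 with smooth muscle markers. Without the 2 libraries farthest for each list these were 0.342, 0.542 and -0.261. The relation with smooth muscle thus rests on the 2 libraries left out for that list. The part of these cell types in the ratio was not tested.

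The line through the valves did not meet the other tissues. Continued to the muscle share of myocardium, beyond the valve range, it gives a nuclear share of 2.82% for diet and 2.77% for control myocardium. The measured means were 1.95% ± 0.108 in diet and 2.33% ± 0.083 in control myocardium (SD, n = 3 each). For the mitochondrial share the line gives 29.3% and 28.8%, and the measured means were 19.6% ± 2.17 in diet and 20.6% ± 0.871 in control myocardium. At the muscle share of the aorta the line gives 0.485% for diet and 0.479% for control, and the measured nuclear means were 0.342% ± 0.011 (n = 2) and 0.400% ± 0.038 (n = 3).

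At 2 weeks 60 of 61 nuclear members stood lower than in controls, but no member passed the threshold of 0.05 on the adjusted p (edgeR quasi-likelihood test, Benjamini-Hochberg, all genes tested). The median log2 change was -1.15 for the 61 nuclear members and -0.80 for the 13 mitochondrial members, against 0.02 for all genes tested. Over all genes, 0.0250% passed in either direction. At an unadjusted p under 0.05, 56 of 61 nuclear and 2 of 13 mitochondrial members were lower, against 9.50% of all genes. In 58 of 61 nuclear members and 0 of 13 mitochondrial members, every 2-week library lay below every control library on TMM-scaled CPM, against 6.14% of all genes. DESeq2 called 37 members lower, where it called 3.91% of all genes lower. A fit of the 2-week and control valves alone called 45, against 2.23% of all genes, and leaving out control replicate 2 gave 17, against 2.46%.

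SDHA, the flavoprotein subunit of complex II that oxidises succinate, measured 162, 288, 158 and 174 CPM in the 2-week valves. The controls had 466, 285, 958 and 563 CPM. On this unscaled CPM, 2-week replicate 2 and control replicate 2 met while the other libraries of the groups lay apart. With TMM scaling every 2-week library lay below every control. Its log2 change was -1.61 ± 0.45 (SE), with an edgeR adjusted p of 0.0881. NDUFS1, the largest subunit of complex I, measured 52.4, 89.8, 59.6 and 57.3 CPM at 2 weeks against 138, 86, 251 and 141 CPM in controls. The 2-week values again lay low, and replicate 2 lay above the lowest control. ATP5F1A, the catalytic-head alpha subunit of ATP synthase, had a log2 change of -1.25 ± 0.34 (edgeR adjusted p = 0.0836), and COX4I1, a nuclear subunit of complex IV, had -0.91 ± 0.38 (edgeR adjusted p = 0.230).

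The mitochondrial members differed less from controls at 2 weeks, relative to their spread. KEF51_p11, the mitochondrial member with most counts in the libraries, measured 19583, 19366, 27474 and 20403 CPM at 2 weeks against 35903, 14794, 46533 and 53682 CPM in controls. Control replicate 2 was the lowest of all 8 libraries. The log2 change was -0.84 ± 0.49, with an edgeR adjusted p of 0.433.

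At 4 weeks no member passed either, where 2.00% of all genes did (edgeR). At an unadjusted p under 0.05, 1 nuclear member was higher, 1 nuclear member was lower and 6 of 13 mitochondrial members were lower. Of all genes 9.40% were higher and 3.37% lower. The lower nuclear member was ATP5F1B. Its LOC row held 3.10% to 66.2% of the joint reads at 4 weeks and 15.9% to 32.2% in controls. DESeq2 called 1 member lower, and 0.426% of all genes. The medians were -0.47 for nuclear and -0.81 for mitochondrial members, and without single libraries they ran from -0.75 to -0.30 and from -1.06 to -0.57. KEF51_p06 measured 1362, 1757, 1138 and 1521 CPM at 4 weeks and 2898, 1634, 2989 and 3128 CPM in controls. All but control replicate 2 lay above every 4-week valve. The log2 change was -1.06 ± 0.32 (edgeR adjusted p = 0.111), and by DESeq2 the adjusted p was 0.0234. SDHA stood at -0.63 ± 0.44 (edgeR adjusted p = 0.641).

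At 7 weeks the median log2 change against controls was 0.25 for nuclear and -0.16 for mitochondrial members. Without single libraries the nuclear median ran from -0.12 to 0.51 and the mitochondrial median from -0.53 to 0.04, so neither kept its sign. The call was 1 of 74 members higher, NDUFA4L2, and 0 lower, while 5.20% of all genes were called higher. SDHA measured 318, 488, 395 and 736 CPM at 7 weeks against 466, 285, 958 and 563 CPM in controls, and the groups overlapped throughout. Its log2 change was -0.24 ± 0.44 (edgeR adjusted p = 0.759), and it was 0.17 without control replicate 3.

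The nuclear members rose at 7 weeks relative to the 2-week valves, and the mitochondrial members did not pass the test. At 4 weeks against 2 weeks, 2 nuclear members were higher, NDUFA4L2 and NDUFA5, against 3.14% of all genes. At 7 weeks against 2 weeks, 56 of 61 nuclear members were higher and 0 lower, against 14.5% of all genes higher. Of the mitochondrial members 0 of 13 passed by edgeR. At an unadjusted p under 0.05, 1 was higher, against 21.7% of all genes, and DESeq2 called 1 of 13 higher, against 17.4%. The difference between nuclear and mitochondrial members was not tested. The median log2 change was 1.40 for nuclear and 0.48 for mitochondrial members. In 34 of 61 nuclear members every 7-week library lay above every 2-week library, against 13.1% of all genes. The count of members called ran from 30 to 60 when single libraries were left out, with 30 without 7-week replicate 2, which has the highest nuclear share (against 9.30% of all genes in that fit).

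The rise covered 34 of 36 members of complex I, 3 of 4 of complex II, 17 of 18 of complex V, UQCRQ of complex III and COX4I1 of complex IV. ATP5MC1, a gene for the c subunit of the ATP synthase rotor, measured 109, 561, 277 and 359 CPM at 7 weeks and 55.7, 101, 75.4 and 91.3 CPM at 2 weeks. Every 7-week value lay above every 2-week value, and replicate 2 was the highest. Its log2 change was 2.14 ± 0.55 (edgeR adjusted p = 0.0121). UQCRQ, a small subunit of complex III, measured 136, 640, 269 and 420 CPM at 7 weeks and 78.9, 116, 68.5 and 104 CPM at 2 weeks. The groups did not overlap, and the log2 change was 2.13 ± 0.48 (edgeR adjusted p = 0.00622). ATP5ME and ATP5MF, small membrane subunits of ATP synthase, rose by 2.14 ± 0.50 and 2.00 ± 0.43 (edgeR adjusted p = 0.00795 and 0.00509). NDUFA4, first described with complex I and later assigned to complex IV, rose by 2.09 ± 0.46 (edgeR adjusted p = 0.00545).

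In complex II SDHA passed the test and SDHC did not, and the difference between them was not tested. SDHA rose by 1.37 ± 0.45 at 7 weeks against 2 weeks (edgeR adjusted p = 0.0343). SDHC, a membrane anchor of the complex, measured 149, 239, 209 and 255 CPM at 7 weeks and 136, 156, 145 and 147 CPM at 2 weeks. The groups overlapped through 7-week replicate 1, and the log2 change of 0.59 ± 0.24 did not pass (edgeR adjusted p = 0.0779). SDHA itself lost its call in 5 of the 8 fits without 1 library, with log2 changes of 1.12 to 1.34 and edgeR adjusted p of 0.0715 to 0.102.

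NDUFA5, an accessory subunit of complex I, measured 20.4, 18.2, 12.2 and 16.4 CPM at 4 weeks and 7.58, 10.4, 5.35 and 5.15 CPM at 2 weeks. Every 4-week valve lay above every 2-week valve. The log2 change was 1.12 ± 0.30 (edgeR adjusted p = 0.0468), and the call was lost in 11 of the alternatives tried.

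NDUFA4L2, a paralog of NDUFA4 known to be induced by hypoxia and to lower complex I activity, was the 1 member that passed the test against control valves. It measured 2.09, 3.78, 2.74 and 3.2 CPM at 2 weeks and 9.11, 13.2, 21.1 and 4.52 CPM at 4 weeks. The 7-week valves had 37.1, 17.4, 20.8 and 16.4 CPM, and the controls had 6.55, 4.10, 4.59 and 6.58 CPM. All 7-week values lay above all other valve groups except for 4-week replicate 3, and all 2-week values lay below all controls. Its log2 change against controls was -0.92 ± 0.36 at 2 weeks (edgeR adjusted p = 0.207), 0.94 ± 0.35 at 4 weeks (edgeR adjusted p = 0.226) and 2.02 ± 0.36 at 7 weeks (edgeR adjusted p = 0.00679). Against the 2-week valves it was 1.86 ± 0.36 at 4 weeks (edgeR adjusted p = 0.0121) and 2.93 ± 0.37 at 7 weeks (edgeR adjusted p = 4.61e-04). These comparisons share the 2-week or the control valves.

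NDUFA4L2 kept its call when heart muscle was in the fit. Its coefficient on the heart muscle score inside the valve groups was -0.23 ± 0.13 (edgeR adjusted p = 0.367). With the score in the fit, its log2 change was 1.98 ± 0.33 at 7 weeks against control (edgeR adjusted p = 0.00520). Macrophage markers moved in the same valves: 14 of 16 tested were higher at 7 weeks against control, against 5.20% of all genes. Their summed share was 0.0974% to 0.145% at 7 weeks against 0.0217% to 0.0385% in controls. Smooth muscle markers, with 7 of 9 lower against 2.60% of all genes, took 0.725% to 1.54% at 7 weeks against 2.08% to 3.80% in controls. The part of these cell types in the level of NDUFA4L2 was not tested.

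The heart muscle score, the mean log2 CPM of the 20 shared markers, was then put into the valve fit. Its coefficient inside the groups was positive at adjusted p under 0.05 for 52 of 61 nuclear members and for 2 of 13 mitochondrial members, KEF51_p03 and KEF51_p11, against 5.64% of all genes (edgeR). The median coefficient was 0.44 for nuclear and 0.51 for mitochondrial members per log2 unit of the score. Without single valve libraries the counts ran from 42 to 53 nuclear and from 0 to 9 mitochondrial members. COX6A1 and NDUFA4L2 had negative coefficients, of -0.04 and -0.23.

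With the score in the fit the nuclear differences between valve groups were close to 0. The nuclear median was 0.04 at 2 weeks, -0.04 at 4 weeks and 0.16 at 7 weeks against control, -0.12 at 4 weeks against 2 weeks and 0.06 at 7 weeks against 2 weeks. The call was NDUFA4L2 alone in the comparisons of 7 weeks with control, 4 weeks with 2 weeks and 7 weeks with 2 weeks, and 0 members in the others (edgeR). Of all genes 6.11%, 2.42% and 2.44% were higher in those 3 comparisons. At 7 weeks against 2 weeks the count of members called was thus 1, where the fit without the score gave 56. The muscle scores of the 2-week valves ran from 5.08 to 6.69. They lay below all controls (7.09 to 9.41) and all 7-week valves (7.15 to 9.40). In these comparisons the groups shared no range of the score, so the fit extends a slope and cannot separate diet from muscle content. The mean score also differs between the other groups, so diet and muscle content are not fully separated there either.

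The mitochondrial medians changed sign with the score in the fit at 2 weeks against control and at 7 weeks against 2 weeks. At 4 and 7 weeks against control they kept their negative sign, at -0.25 and -0.19. At 4 weeks against 2 weeks the median was negative without the score as well. At 2 weeks against control, 12 of 13 had a positive log2 change, with a median of 0.66. At 7 weeks and at 4 weeks against 2 weeks, 0 of 13 had a positive change, with medians of -0.86 and -0.91. No mitochondrial member passed in any of these comparisons (edgeR). Higher at an unadjusted p under 0.05 were 0 of 13 at 2 weeks against control, where 2.52% of all genes were. At 7 weeks against 2 weeks 1 was lower, against 8.25% of all genes, and at 4 weeks against 2 weeks 8 were lower, against 4.98%. KEF51_p11 had an adjusted log2 change of 0.84 ± 0.50 at 2 weeks against control and of -0.99 ± 0.50 at 7 weeks against 2 weeks. The same 2-week valves enter the 3 comparisons that involve 2 weeks, and their muscle scores did not overlap those of the controls or the 7-week valves. Among these valves replicate 3 had the highest level of KEF51_p11, 27474 CPM.

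**Figure D2:**
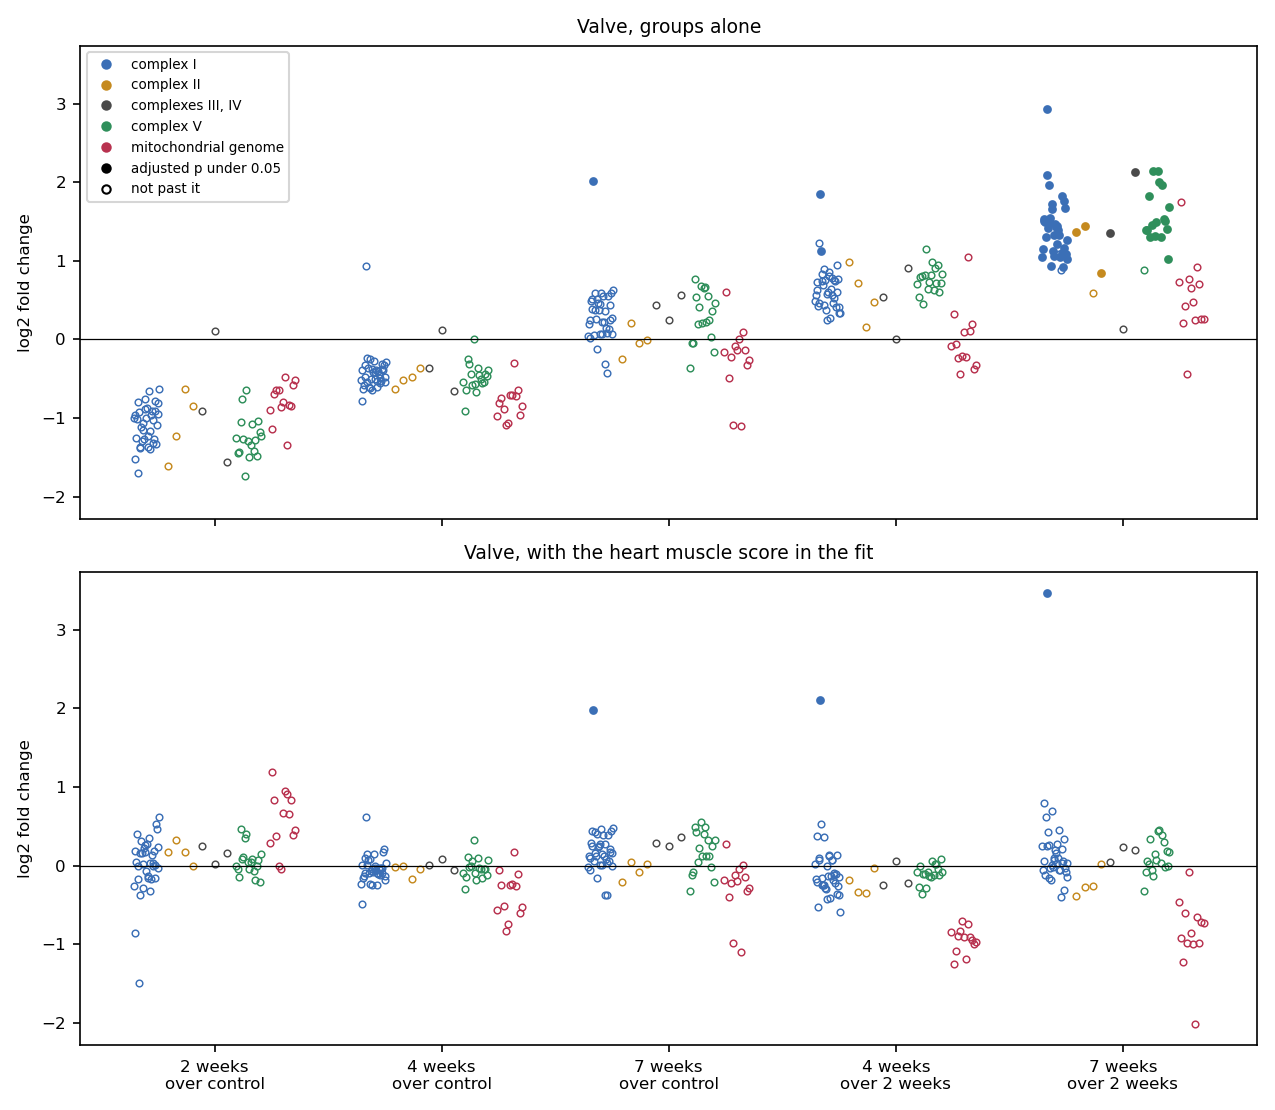
Log2 fold change of each of the 74 members in 5 valve comparisons, from the fit on groups alone (upper panel) and from the fit with the heart muscle score (lower panel); each point is a gene, and filled points have an edgeR adjusted p under 0.05. Of the nuclear members 56 are filled at 7 weeks against 2 weeks in the upper panel and NDUFA4L2 alone in the lower panel, where the mitochondrial members lie below 0.

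COX6A1 and COX6A2, isoforms of the same complex IV subunit, stood in different proportion in muscle and aorta. Their log2 ratio, COX6A2 over COX6A1, ran from 3.72 to 4.68 in myocardium, from -3.91 to 2.14 in valve and from -5.86 to -3.87 in aorta. COX6A1, the isoform of subunit VIa found outside striated muscle, measured 95.0, 87.7, 101 and 133 CPM at 2 weeks, 114, 128, 125.2 and 95.7 CPM at 4 weeks and 99.0, 119, 133 and 98.3 CPM at 7 weeks. The controls had 89.9, 127, 66.4 and 101 CPM, and all valve groups overlapped. Its log2 change was 0.11 ± 0.20 at 2 weeks against control, 0.24 ± 0.20 at 7 weeks against control and 0.14 ± 0.20 at 7 weeks against 2 weeks (edgeR adjusted p = 0.850, 0.460 and 0.639). It was the only 1 of 61 nuclear members with a positive change at 2 weeks. Without 2-week replicate 4 or control replicate 3 that change was -0.01.

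COX6A2, the heart and skeletal muscle isoform of the same subunit, is listed under a LOC number and is no member. It measured 6.23, 34.7, 10.1 and 22.3 CPM at 2 weeks, 171, 78.2, 16.8 and 88.4 CPM at 4 weeks and 43.3, 526, 132 and 243 CPM at 7 weeks. The controls had 136, 67.9, 239 and 217 CPM, all above the 2-week valves. The log2 change was -3.27 ± 0.84 at 2 weeks against control (edgeR adjusted p = 0.0750) and 3.90 ± 0.86 at 7 weeks against 2 weeks (edgeR adjusted p = 0.00581). COX7A1, the muscle isoform of subunit VIIa, stood at -2.78 ± 0.78 and 3.66 ± 0.81 in the same comparisons (edgeR adjusted p = 0.0905 and 0.00588). The coefficient on the muscle score was 1.25 for COX6A2 and 1.15 for COX7A1. The log2 ratio of COX6A2 over COX6A1 counts averaged -2.78 ± 1.11 at 2 weeks, -0.78 ± 1.502 at 4 weeks, 0.56 ± 1.47 at 7 weeks and 0.66 ± 1.16 in control valves (SD, n = 4 each). In 7-week replicate 2, COX6A2 at 526 CPM and COX7A1 at 456 CPM lay above every myocardium library.

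COX7A2, the isoform of subunit VIIa found in most tissues, was not lower in muscle. It measured 172 to 388 CPM in myocardium, 84.6 to 376 CPM in valve and 46.7 to 95.0 CPM in aorta, so myocardium overlapped the valve and lay above the aorta. The log2 ratio of COX7A1 over COX7A2 ran from -0.13 to 0.48 in myocardium, and 7-week replicate 2 lay inside that range at 0.28.

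**Figure D3:**
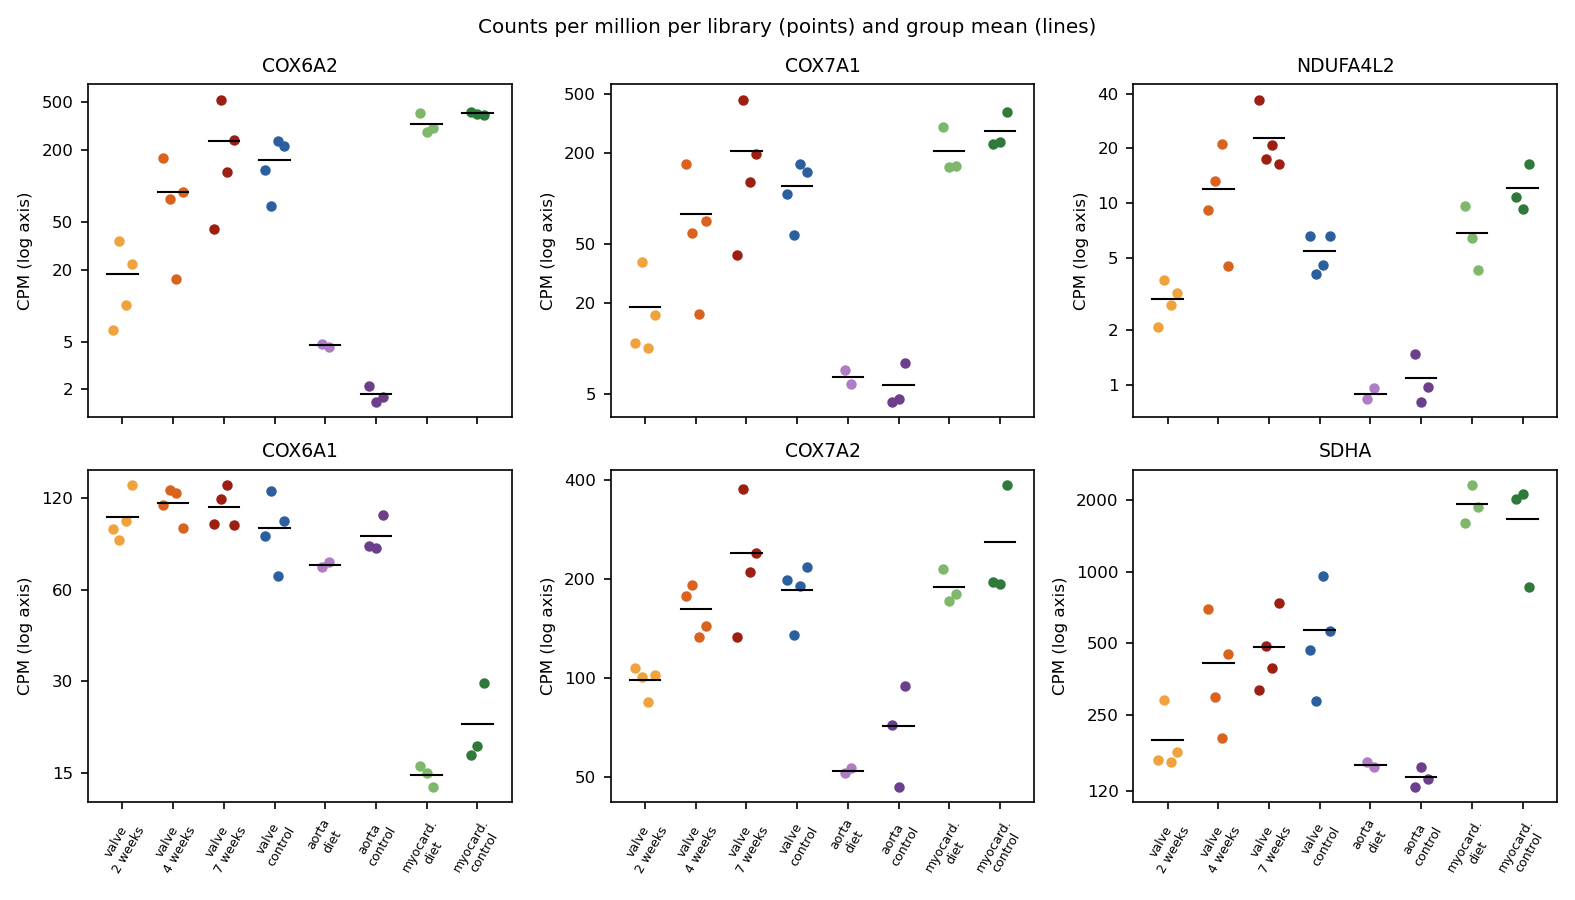
CPM on log axes for the complex IV isoforms COX6A2, COX6A1, COX7A1 and COX7A2 and for NDUFA4L2 and SDHA in every library; points are libraries and lines are group means. COX6A2 runs from 1.57 CPM in aorta to 526 CPM in a 7-week valve, COX6A1 is lowest in myocardium at 13.5 to 29.7 CPM, and NDUFA4L2 is highest in the 7-week valves.

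Among the control tissues the set was highest in myocardium and lowest in aorta, with the valve between them. The nuclear share was 0.764% to 1.43% in control valve, 0.404%, 0.360% and 0.436% in control aorta and 2.24%, 2.33% and 2.41% in control myocardium, with no overlap between the tissues. The mitochondrial share was 6.83% to 21.0% in control valve, 7.35%, 3.35% and 5.59% in control aorta and 20.5%, 21.5% and 19.8% in control myocardium. Here control valve overlapped both other tissues. The heart muscle share was 0.568% to 2.11% in control valve, 0.163% to 0.187% in control aorta and 3.40% to 4.73% in control myocardium. Valve tissue and heart muscle left attached to it cannot be told apart in these comparisons, and the part of muscle was not tested.

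Control valve against control aorta had 48 of 61 nuclear and 8 of 13 mitochondrial members higher and 0 lower, against 14% of all genes higher (edgeR). The medians were 1.35 and 1.26. NDUFA4 had 240, 147, 334 and 294 CPM in valve and 36.8, 28.2 and 53.5 CPM in aorta, a log2 change of 2.57 ± 0.46 (edgeR adjusted p = 6.15e-04). ATP5MC1 was higher by 2.30 ± 0.52, ATP5MC3, another gene for the c subunit, by 2.05 ± 0.34 and SDHA by 1.96 ± 0.47 (edgeR adjusted p = 0.00306, 3.46e-04 and 0.00461). NDUFA4L2 was higher by 2.21 ± 0.43 and NDUFA11, a membrane subunit of complex I, by 2.02 ± 0.60 (edgeR adjusted p = 0.00117 and 0.0178). KEF51_p01 had 18985, 9130, 23506 and 22195 CPM in valve and 7207, 4164 and 4201 CPM in aorta. All valves lay above all aortas, and the log2 change was 1.73 ± 0.42 (edgeR adjusted p = 0.00531). COX6A1 did not pass, at -0.06 ± 0.20 (edgeR adjusted p = 0.853), while COX6A2 was higher in valve by 6.45 ± 0.95 (edgeR adjusted p = 1.54e-04). The count of members called was 34 without aorta control replicate 2, against 8.85% of all genes.

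Control valve against control myocardium had 55 of 61 nuclear members lower, against 21.5% of all genes. The median was -1.30. This fit took no account of the 2 control animals that gave both tissues. In valve SDHA had a log2 change of -1.93 ± 0.44, NDUFS7, an iron-sulfur subunit of complex I, had -1.89 ± 0.45, and NDUFS1 had -1.73 ± 0.36 (edgeR adjusted p = 0.00115, 0.00169 and 4.92e-04). ATP5MC1 had a log2 change of -1.73 ± 0.48 and UQCRQ of -1.67 ± 0.43 (edgeR adjusted p = 0.00519 and 0.00294). ATP5F1B, the beta subunit of ATP synthase, stood at -1.78 ± 0.50 (edgeR adjusted p = 0.00570), with its reads shared with a LOC row. COX6A1 was the 1 member higher, against 23.3% of all genes, with 89.9, 127, 66.4 and 101 CPM in valve and 17.2, 18.5 and 29.7 CPM in myocardium. Its log2 change was 1.78 ± 0.21 (edgeR adjusted p = 7.07e-07). Of the mitochondrial members 0 of 13 passed by edgeR, with a median of -0.66. At an unadjusted p under 0.05, 3 were lower, against 25.2% of all genes, and 3 of 13 were lower by DESeq2, against 24.5%. KEF51_p11 measured 35903, 14794, 46533 and 53682 CPM in valve and 58676, 64226 and 72821 CPM in myocardium. The 2 groups did not overlap, and the log2 change of -1.11 ± 0.47 had an edgeR adjusted p of 0.0568 and a DESeq2 adjusted p of 0.0160.

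Control aorta against control myocardium had 60 of 61 nuclear and 11 of 13 mitochondrial members lower, against 25.4% of all genes. The medians were -2.53 and -2.05. In aorta ATP5MC1, NDUFA4 and SDHA had log2 changes of -4.04 ± 0.58, -3.96 ± 0.51 and -3.89 ± 0.53 (edgeR adjusted p = 3.73e-06, 9.01e-07 and 1.82e-06). ATP5F1B, NDUFA4L2 and UQCRQ were lower, with log2 changes of -3.74 ± 0.59, -3.71 ± 0.46 and -3.56 ± 0.50 (edgeR adjusted p = 1.36e-05, 6.04e-07 and 3.31e-06). KEF51_p11 stood at -2.63 ± 0.54 (edgeR adjusted p = 2.57e-04). COX6A1 was again the 1 member higher, by 1.84 ± 0.22 (edgeR adjusted p = 3.84e-07), against 26.4% of all genes. COX6A2 stood at -8.07 ± 1.03 (edgeR adjusted p = 8.45e-07).

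**Figure D4:**
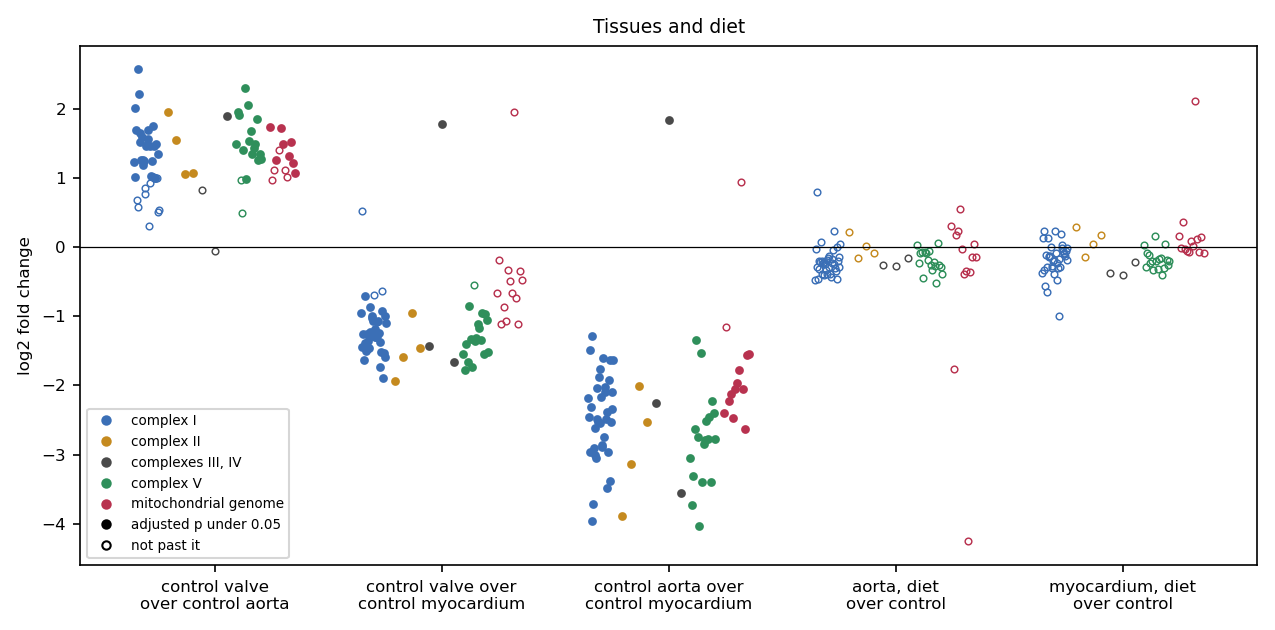
Log2 fold change of each of the 74 members between control tissues and between diet and control in aorta and myocardium; each point is a gene, and filled points have an edgeR adjusted p under 0.05. COX6A1 stands alone above 0 among filled points against myocardium, and the diet comparisons have no filled point.

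In the aorta the diet moved no member past the threshold. The nuclear share was 0.350% and 0.335% with the diet against 0.404%, 0.360% and 0.436% in controls. These shares of library totals, without TMM scaling, did not overlap. The medians were -0.22 for nuclear and -0.14 for mitochondrial members, and without single libraries they ran from -0.33 to -0.12 and from -0.41 to 0.15. By edgeR or DESeq2 0 of 74 were called, where 0.159% of all genes passed by edgeR. At an unadjusted p under 0.05, 2 nuclear members and 1 mitochondrial member were lower, against 5.50% of all genes, so the nuclear count was at the background. On TMM-scaled CPM both diet aortas lay below all 3 controls in 10 of 61 nuclear members, or 16.4%, against 15.7% of all genes.

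In the myocardium the diet moved no member past the threshold either. The nuclear share was 1.93%, 2.07% and 1.85% with the diet, below the 2.24%, 2.33% and 2.41% of the controls. The heart muscle share was 3.91%, 4.78% and 4.34% with the diet and overlapped the controls at 4.73%, 4.64% and 3.40%. The mitochondrial share was 17.5%, 19.5% and 21.8% with the diet against 20.5%, 21.5% and 19.8% in controls, and overlapped. Gene by gene the medians were -0.18 for nuclear and 0.02 for mitochondrial members, and without single libraries they ran from -0.44 to -0.04 and from -0.06 to 0.15. By edgeR or DESeq2 0 of 74 were called, where 0.0848% of all genes passed by edgeR. At an unadjusted p under 0.05, 1 nuclear member was lower, NDUFB9, against 4.85% of all genes. On TMM-scaled CPM all diet libraries lay below all controls in 1 of 61 nuclear members, again NDUFB9, against 7.34% of all genes. The LOC row of NDUFB9 held 48.4% to 50.8% of the joint reads with the diet and 0.248% to 47.4% in controls, so its values are uncertain. The summed shares are on library totals without TMM scaling. The TMM factors ran from 0.851 in diet replicate 1 to 1.16 in control replicate 3. The overlap of the sums and that of the single genes are therefore on different scales and are not set against each other.

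NDUFA4L2 measured 9.70, 6.42 and 4.29 CPM in diet myocardium against 10.7, 9.33 and 16.5 CPM in control myocardium. The groups overlapped through diet replicate 1, and the log2 change was -0.65 ± 0.36 (edgeR adjusted p = 0.708). In aorta it was near the floor, at 0.831 and 0.955 CPM with the diet and 0.807 to 1.48 CPM in controls. The diet effect in the 7-week valve minus that in the myocardium was called for 1 of 74 members, NDUFA4L2, against 0.617% of all genes higher. The difference was 2.64 ± 0.53 on the log2 scale (edgeR adjusted p = 0.0160), and the adjusted p was 0.0516 to 0.0717 without control replicate 3 or diet replicate 2 or 3 of the myocardium.

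Among the 13 mitochondrial members, the low-count KEF51_p09 and KEF51_p02 differed widely between replicates. KEF51_p11 held 20.3% to 36.7% of the mitochondrial counts over the 27 libraries, and KEF51_p08 held 10.1% to 18.2%. KEF51_p09, with at most 0.896% of the mitochondrial counts of a library, ran from 5.41 CPM in diet aorta replicate 2 to 1698 CPM in control valve replicate 4. It measured 256, 159, 366 and 232 CPM at 2 weeks, 1117, 108, 166 and 867 CPM at 4 weeks and 321, 643, 62.7 and 82.3 CPM at 7 weeks, against 450, 107, 226 and 1698 CPM in control valves. Aorta had 24.7 and 5.41 CPM with the diet against 659, 9.37 and 223 CPM in controls, and myocardium had 56.0, 38.2 and 1487 CPM with the diet against 44.5, 67.3 and 302 CPM in controls. Replicates of the same tissue and diet thus differed by more than the groups, with a log2 change of -4.26 ± 1.70 in aorta and 2.11 ± 1.33 in myocardium (edgeR adjusted p = 0.400 and 0.777). Without diet replicate 3 the change in myocardium was -1.28. Between control aorta and control myocardium it stood at 0.95 ± 1.34 (edgeR adjusted p = 0.579), and at -0.36 without aorta control replicate 1, beside the 11 mitochondrial members that were lower in aorta. KEF51_p02 held at most 0.171% of the mitochondrial counts of a library. It measured 54.99, 325, 35.3 and 42.4 CPM at 7 weeks and 25.1, 20.2, 64.8 and 44.0 CPM at 2 weeks, a log2 change of 1.74 ± 0.86 (edgeR adjusted p = 0.139).

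Lists of genes that support or feed the respiratory chain differed in how many members were higher at 7 weeks than at 2 weeks, where 14.5% of all genes were. Of 15 citric acid cycle genes, 10 were higher at 7 weeks against 2 weeks, with a median log2 change of 1.14 and MDH2, malate dehydrogenase, at 1.95 ± 0.50 (edgeR adjusted p = 0.0116). A list of 12 further mitochondrial genes outside the name rule held genes of electron transport, inner membrane carriers, outer membrane channels and a creatine kinase. Of these 11 were higher. Among them were CKMT2, the sarcomeric mitochondrial creatine kinase, at 3.80 ± 0.88 and CYC1, cytochrome c1 of complex III, at 2.02 ± 0.49 (edgeR adjusted p = 0.0073 and 0.0095). Of the 21 genes under LOC numbers 19 were higher, with a median of 1.72. Of 39 assembly factors 18 were higher, with a median of 0.60, and of 18 proteins of the mitochondrial ribosome 9 were higher, with a median of 0.59. The list of mitochondrial biogenesis and DNA maintenance had 3 of 19 higher and 1 lower, which is near the 14.5% higher and 12.2% lower over all genes. Among them ESRRA, a nuclear receptor that drives genes of mitochondria, rose by 1.58 ± 0.39 and PPARGC1A, its coactivator, by 1.34 ± 0.48, while NRF1, a transcription factor for respiratory genes, fell by 0.51 ± 0.17 (edgeR adjusted p = 0.0103, 0.0480 and 0.0382).

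The lists also differed in how many genes followed the heart muscle score inside the valve groups. The coefficient was positive past the threshold in 13 of 15 citric acid cycle genes and 11 of the 12 further mitochondrial genes outside the name rule. The same held for 16 of 21 genes under LOC numbers and 11 of 39 assembly factors. It also held for 3 of 18 mitochondrial ribosome proteins and 3 of 19 biogenesis genes. Of all genes 5.64% had such a coefficient (edgeR). Of the 20 heart muscle markers, which make up the score, 15 were higher at 7 weeks against 2 weeks, against 14.5% of all genes. Their median was 2.79. The 4 atrial markers were a separate case. Against control, 3 of 4 were higher at 4 weeks, where 1.94% of all genes were. At 7 weeks 4 of 4 were higher, where 5.20% of all genes were. Their summed shares were 0.0241% to 0.758% at 4 weeks and 0.0444% to 0.481% at 7 weeks, against 4.10e-04% to 0.00137% in controls. In aorta 3 of 4 atrial markers were also higher with the diet, against 0.132% of all genes. The part of atrial muscle in the levels of the members was not tested.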

How the data were processed

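RNA of 27 libraries was sequenced from directional kits, per the labels. The authors deposited RSEM expected counts per gene, 1 table per tissue and a second valve table without myocardial genes. The submitters' processing notes name RSEM 1.3.3 and STAR 2.7.8a, then edgeR 3.42.4, Trim Galore 0.6.6 and FastQC 0.11.9. Genome build, annotation and strand setting were not given in the sources used here; hence reads of antisense or near-identical genes cannot be separated at any member. The deposited expected counts were rounded to whole numbers. 10.12% of valve values were not whole.

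Tests used edgeR 4.0.16 in R 4.3.3: filterByExpr with a minimum count of 10 and total of 15, TMM scaling, a two-sided quasi-likelihood F test and Benjamini-Hochberg adjustment over all genes tested, at a threshold of 0.05. Valve, aorta and myocardium each had 1 fit, and comparisons across tissues used 1 fit of all 27 libraries. ± after a log2 change is its SE, and ± after a mean is the SD. P-values measure the spread between libraries, which come from separate animals within a group by their numbers. No 2 libraries agreed within sampling noise (chi-square per degree of freedom of 12.9 or more in the closest pair). The heart muscle score is the mean log2 CPM of the shared cardiomyocyte markers with a prior count of 2. Depth ran from 8458453 to 19998954 counts. Counts are reads, and the SE of a log2 change covers the spread between libraries as well as counting error.

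The members, gene lists and markers were chosen with earlier results of these data known. Named in each comparison were up to 6 higher and 6 lower members with the largest changes past the threshold, core subunits, isoforms and mitochondrial members, and the 2 members of other lists with the largest change per direction; a part of these is printed. Library numbers in the labels did not pair the samples (correlations of deviations from group means of -0.34 to 0.24 in valve). Alternatives were DESeq2 1.42.0, RLE scaling, no filter, the filtered valve table, the compared groups alone, a replicate block, the animal as a block in limma 3.58.1 voom, the muscle score as covariate and single libraries left out. Added after seeing the data were fits without mitochondrial genes and RN18S, with near-identical rows joined, with the muscle score in myocardium, and the test of the score itself. The scripts were tested on simulated counts.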

Additional observations from a re-analysis of the deposited data

Results flagged for a closer look

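Single libraries lay far from the rest of their group of 4 by Dixon's test in 6 of 104 measures and groups looked at, where chance flags about 1 in 20. The log2 ratio of nuclear over mitochondrial counts was -3.83 in 7-week replicate 1, below the other 3 valves of its group. ATP5F1A measured 527 CPM and SDHA 288 CPM in 2-week replicate 2, above their groups; this library had the highest heart muscle share of the 2-week valves, 0.490%. KEF51_p02 measured 325 CPM in 7-week replicate 2, above its group. KEF51_p06 measured 1634 CPM in control replicate 2, below its group. KEF51_p11 measured 27474 CPM in 2-week replicate 3, above its group.

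The effect of the diet on NDUFA4L2 differed between tissues by a test of the difference itself. The change in the 7-week valve minus that in the myocardium was 2.64 on the log2 scale (edgeR adjusted p = 0.0160). This fit took no account of the animals that gave both tissues, 3 with 7-week valves and 2 controls. Without single libraries the count of members called ran from 0 to 1, so the call was lost in some of those fits. All 4 of the 7-week valves lay above all 4 control valves.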

How the results depend on the processing

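Members called at 2 weeks against control were 0, and 37 by DESeq2 and 45 with the compared groups alone. At 4 weeks against control they were 0, and 1 by DESeq2. At 4 weeks against 2 weeks they were 2, and 1 with no filter, with the muscle score, with the replicate block or without mitochondrial genes and RN18S, and 0 with the compared groups alone. At 7 weeks against 2 weeks they were 56, 1 with the muscle score and 46 with the replicate block, which also cost SDHA its call. The block changed no other count of calls. Same-numbered libraries correlated at -0.34 to 0.24 in valve, with a median of -0.06, so the numbers were not taken as pairs.

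Without single libraries the counts ran from 0 to 17 at 2 weeks against control, 0 to 1 at 4 weeks against control, 1 to 2 at 4 weeks against 2 weeks, 30 to 60 at 7 weeks against 2 weeks, 0 to 1 in aorta, 34 to 61 for control valve against aorta and 0 to 1 for valve minus myocardium. The nuclear slope on the heart muscle share ran from 0.505 to 0.595, and from 0.439 to 0.547 inside groups.

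Other marker lists gave slopes of other sizes. With shared, ventricular and atrial markers together the nuclear slope was 0.247 (0.232 inside groups) and the mitochondrial slope 2.31 (2.46 inside groups). With ventricular markers alone they were 0.354 (0.310 inside groups) and 3.52 (3.29 inside groups). Each slope is per percentage point of its own list, so the sizes cannot be compared between lists. With a total that leaves out mitochondrial genes and RN18S, smaller by construction, the nuclear share was 0.378% in diet and 0.445% in control aorta, 2.53% in diet and 2.99% in control myocardium. The mitochondrial share on that scale was 25.5% in diet and 26.5% in control myocardium.

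Signs that turned: with the muscle score at 2 weeks against control, SDHA 0.17, NDUFS1 0.029, COX4I1 0.25, KEF51_p11 0.84 and COX7A1 0.057. With the muscle score at 7 weeks against 2 weeks, ATP5MC1 stood at -0.13, SDHA at -0.38, SDHC at -0.26, KEF51_p02 at -0.92 and KEF51_p11 at -0.99. Without single libraries COX6A1 ran from -0.012 (without control replicate 3; also negative without 2-week replicate 4) to 0.22 at 2 weeks against control. It ran from -0.014 (without 7-week replicate 2) to 0.25 at 7 weeks against 2 weeks, and from -0.17 to 0.082 for control valve against aorta, positive without valve or aorta control replicate 3. SDHA ran from -0.49 to 0.17 (without control replicate 3) at 7 weeks against control. KEF51_p09 ran from -1.28 (without diet replicate 3) to 3.26 for the diet in myocardium, and from -0.36 (without aorta control replicate 1) to 2.05 between control aorta and myocardium, where the animal as a block gave -0.12.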
